A study of Mus musculus with 15 samples.

Results

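The complement components and receptors described here are 8 mouse genes of the 20610 in the deposited expression table, taken by symbol: the C1q chain genes C1qa, C1qb and C1qc, the components C3 and C4b, the anaphylatoxin receptor genes C3ar1 and C5ar1, and Serping1, which encodes C1 inhibitor. Their transcript levels, in TPM (transcript abundance per length, scaled to the same total in every library), were measured by polyA RNA-seq in 3 cell types that had been separated with magnetic beads from cortices of wild-type (WT) males at postnatal day 28. There were 5 libraries each of microglia, the resident immune cells of the brain, of astrocytes and of neurons, 15 in all. All the mice were WT and none was treated, so the comparisons are between cell types, and which animal each library came from is not given in the labels. All p-values therefore measure the spread between libraries, which may be technical, and they treat the libraries as unpaired unless a pairing is named. In such bulk libraries, fewer cells of a type and less RNA per cell cannot be told apart.

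Complement is a cascade of secreted proteins that tags surfaces for removal. In its classical pathway C1q, built from A, B and C chains, binds a target and activates the proteases C1r and C1s, which cleave C4 and C2; the enzyme these form cleaves C3. Fragments of C3 and C5 signal through the receptors C3aR and C5aR1, surface-bound C3 fragments are recognised by the integrin CR3, and C1 inhibitor blocks C1r and C1s. In the developing brain, C1q and C3 are known for marking synapses that microglia engulf.

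Microglia and astrocyte markers were highest in the libraries of those labels, although microglia library 1 held more oligodendrocyte than microglia marker RNA. The neuron libraries held more endothelial than neuronal marker RNA. The 20 microglia markers summed to 84898 TPM on average in microglia, 219 TPM in astrocytes and 141 TPM in neurons. The 15 astrocyte markers summed to 577, 25274 and 264 TPM in the same order of cell types. The 18 neuron markers reached 76.6 TPM in microglia, 232 TPM in astrocytes and 1252 TPM in neurons, where the 13 endothelial markers summed to 33206 TPM and the 11 mural cell markers to 4281 TPM. Oligodendrocyte markers spanned 255 to 69938 TPM among the microglia libraries and were highest in libraries 1 and 2. In microglia library 1 they exceeded the microglia marker sum of 68689 TPM, and in library 2 they reached 52216 TPM beside 63814 TPM. Among the neuron libraries they averaged 4200 TPM and were also highest in libraries 1 and 2, at 8493 and 10389 TPM. The members' results with microglia are therefore also given without microglia libraries 1 and 2, with the neuron libraries kept. The comparison of microglia with astrocytes uses the neuron libraries only in the filter and the shared estimate of spread.

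The C1q chains were the most abundant members in microglia, with mean TPM there at least 469.7-fold that of either other cell type, and the receptors followed the same order at lower levels. C4b was highest in astrocytes, Serping1 was low in microglia and at similar levels in astrocytes and neurons, and C3 stayed below 1 TPM in every library. A gene was called different when limma gave a Benjamini-Hochberg adjusted p below 0.05 and a log2 difference of at least 1 in size, over the 13351 genes that reached 1 TPM in 5 or more libraries. Differences are on the log2(TPM + 1) scale, which understates those of genes with low levels. C3 was the 1 member that did not pass the filter. C3ar1 passed it mainly through its 5 microglia libraries, with 1 astrocyte library and no neuron library at 1 TPM.

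**Figure D1:**
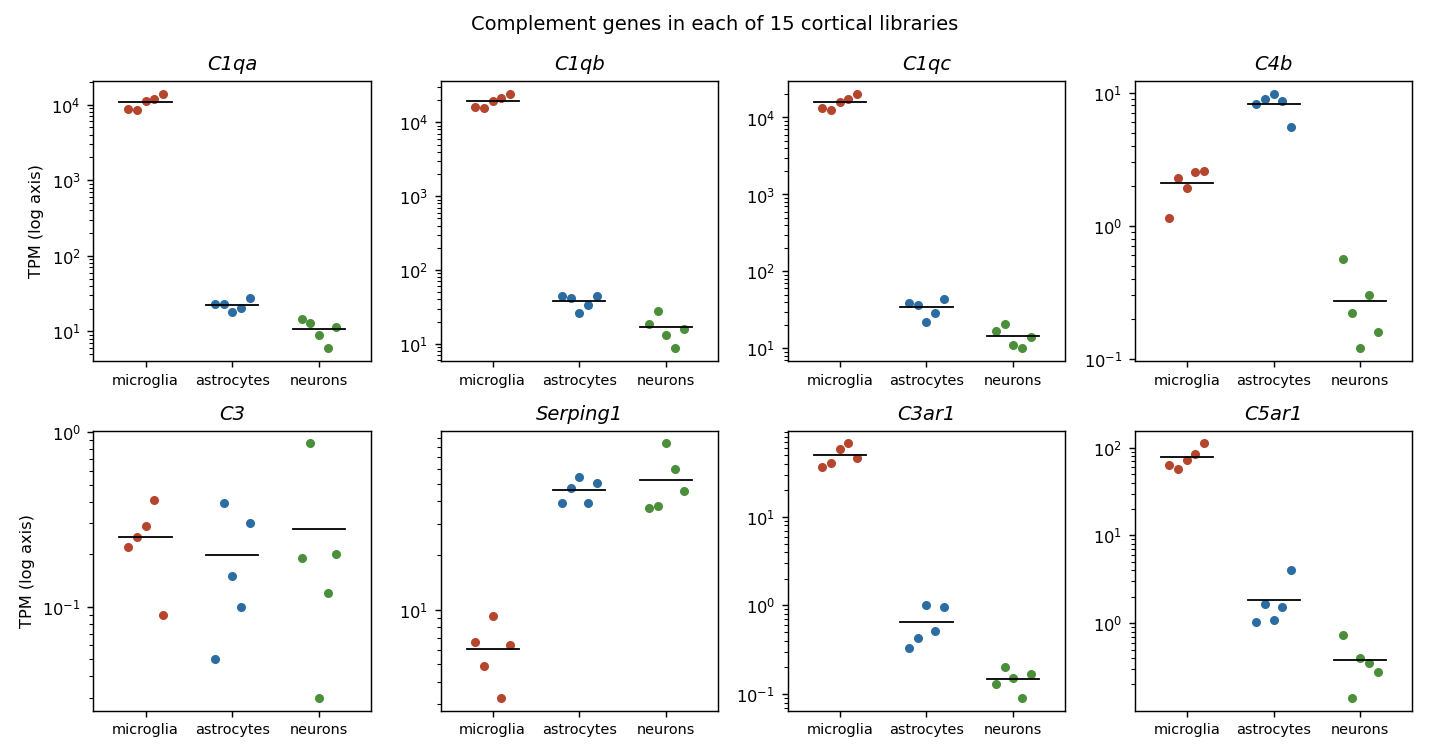
TPM on a log axis for each of the 8 members in the 5 microglia, 5 astrocyte and 5 neuron libraries, 1 point per library with a line at the mean. The C1q chains, C3ar1 and C5ar1 are highest in microglia, C4b is highest in astrocytes, Serping1 is lowest in microglia, and C3 is below 1 TPM in all libraries.

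Of the 7 tested members, 5 were called higher and 2 lower in microglia than in astrocytes, while 10.2% of all tested genes were called higher and 32.3% lower (42.5% in either direction). Against neurons, 6 members were called higher and 1 lower in microglia, with 9.74% of all tested genes called higher and 29.5% lower (39.3% in either direction). The members called higher in microglia include C3ar1 in both comparisons, where the filter partly set its direction. In astrocytes against neurons 4 members were called higher and 0 lower, at 12.7% higher and 12.9% lower among all tested genes (25.6% in either direction). The members' median log2 differences were 4.94, 5.82 and 1.03 in these comparisons, and those of all tested genes were -0.57, -0.48 and 0.03. The members' median of 4.94 is the value of C3ar1 itself. With median-of-ratios scaling the median over all genes moved up by 0.55 for microglia against astrocytes and by 0.52 against neurons, and no tested member changed its direction in a comparison with microglia.

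The genes of the C1q chains lie side by side on the minus strand of chromosome 4 (GRCm38, GENCODE vM21), with C1qb at chr4:136880129-136886187, C1qc at chr4:136889804-136893065 and C1qa at chr4:136895917-136898803. C1qb, which encodes the B chain, was at 16075, 15717, 19709.7, 21327 and 24385 TPM in microglia libraries 1 to 5, at 44.98, 41.1, 26.1, 33.4 and 43.8 TPM in astrocytes, and at 18.5, 28.2, 13.02, 8.66 and 16.1 TPM in neurons. Microglia stood far apart from both others, and the astrocyte and neuron libraries overlapped, neuron library 2 reaching above astrocyte library 3. C1qc, for the C chain, was at 13282, 12664, 16077, 17566 and 20342 TPM in microglia, at 38.4, 37.0, 22.3, 28.8 and 43.7 TPM in astrocytes, and at 16.9, 20.6, 11.1, 10 and 14.0 TPM in neurons. C1qa, for the A chain, was at 8647, 8404, 11006, 11991 and 13904 TPM in microglia, at 23.0, 23.1, 17.9, 20.5 and 27.8 TPM in astrocytes, and at 14.8, 12.7, 9.09, 5.96 and 11.5 TPM in neurons. For C1qa and C1qc the 3 cell types did not overlap.

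In microglia against astrocytes the log2 differences were 8.83 ± 0.200 (SE) for C1qa, 8.97 ± 0.234 for C1qb and 8.85 ± 0.204 for C1qc (limma adjusted p = 4.42e-16, 1.79e-15 and 5.3e-16). Against neurons they were 9.86, 10.16 and 10.03 (limma adjusted p = 9.68e-17, 3.23e-16 and 9.68e-17). Without microglia libraries 1 and 2 the differences were 9.04, 9.15 and 9.03 from astrocytes and 10.07, 10.34 and 10.22 from neurons. As ratios of mean TPM, C1qa was 481-fold, C1qb 513-fold and C1qc 470-fold higher in microglia than in astrocytes. The chains were called higher in astrocytes than in neurons as well, by 1.03 for C1qa, 1.19 for C1qb and 1.18 for C1qc (limma adjusted p = 0.000296, 0.000339 and 9.21e-05). The C1qa call ended with a difference of 0.95 under median-of-ratios scaling, 0.92 under quantile normalization, and 0.95, 0.99 or 0.85 without astrocyte library 5, neuron library 3 or neuron library 4. The C1qb call ended without neuron library 4 (0.99).

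The low C1q levels outside microglia lay near those of microglial marker RNA. C1qa, C1qb and C1qc in astrocytes were at 0.208%, 0.195% and 0.213% of their microglia mean, and in neurons at 0.1003%, 0.0869% and 0.0908%. The 20 microglia markers had a median of 0.225% in astrocytes, ranging from 0.0552% to 14.8%, and a median of 0.113% in neurons, ranging from 0.0623% to 4.06%. In astrocytes 12 of the 20 markers were above each C1q chain by this measure, and in neurons 11 were above C1qa, 14 above C1qb and 13 above C1qc. Border macrophages of the meninges and vessels also make C1q, and their 9 markers summed to 1486 TPM in microglia (1306 to 1971), 64.2 TPM in astrocytes (47.1 to 78.5) and 58.1 TPM in neurons (38.6 to 69.9), with none at 0. The part of either cell type's RNA in the C1q levels was not tested.

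**Figure D2:**
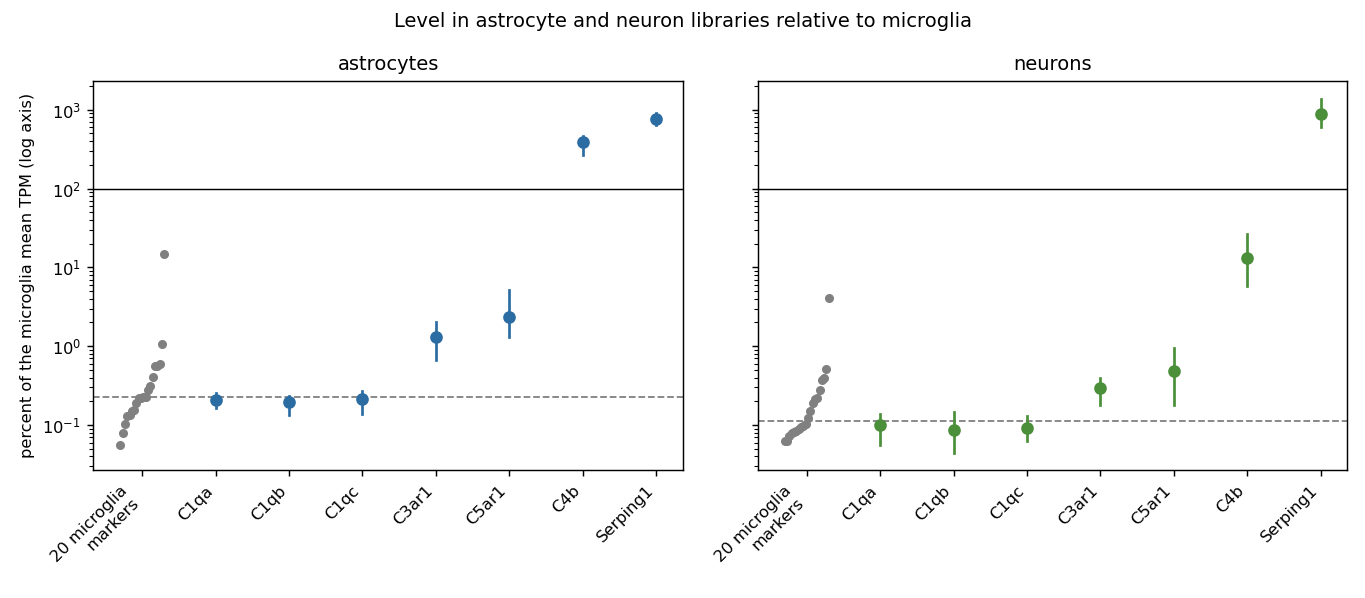
Level in astrocytes and in neurons as a percent of the microglia mean, on a log axis, for the members and for the 20 microglia markers. The C1q chains lie among the markers, near 0.2% in astrocytes and 0.1% in neurons, while C4b and Serping1 in astrocytes and Serping1 in neurons lie above 100%.

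The 3 chains had similar mean proportions in the 3 cell types, nearly fixed among the microglia libraries and more variable among the others. Summed, they made up 46219 ± 9119 TPM in microglia (SD, n = 5), which is 4.62% of all TPM there, 94.4 ± 19.7 TPM in astrocytes and 42.2 ± 14.4 TPM in neurons. C1qa, C1qb and C1qc were 23.3%, 42.1% and 34.6% of the sum in microglia, 24.1%, 40.1% and 35.8% in astrocytes, and 25.9%, 39.1% and 34.96% in neurons. By library, C1qb ranged from 41.6% to 42.7% in microglia, 38.0% to 42.3% in astrocytes and 35.2% to 45.8% in neurons. The ratio of C1qb to C1qc was 1.22 ± 0.0161 in microglia and 1.12 ± 0.0720 in astrocytes (SD, n = 5 each), with no overlap. This log2 difference of 0.12 had a 2-sided exact permutation p of 0.00794, the smallest that 5 against 5 libraries can give, and a Benjamini-Hochberg adjusted p of 0.0476 over 6 ratio tests. The other 5 tests had adjusted exact permutation p-values of 0.536 to 0.976. Leaving out any 1 library of the pair made the adjusted p 0.0952. A test over pairs of the same replicate number, a pairing not otherwise assumed for microglia and astrocytes, gave 0.375. In both tests the unadjusted exact p was the smallest that the remaining libraries or the 5 pairs can give, and microglia were above astrocytes in all 5 pairs. Relative to the microglia marker sum, C1q was at 54.9 ± 5.65% in microglia, 42.7 ± 5.88% in astrocytes and 29.5 ± 6.96% in neurons (SD, n = 5 each), each range overlapping the next.

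**Figure D3:**
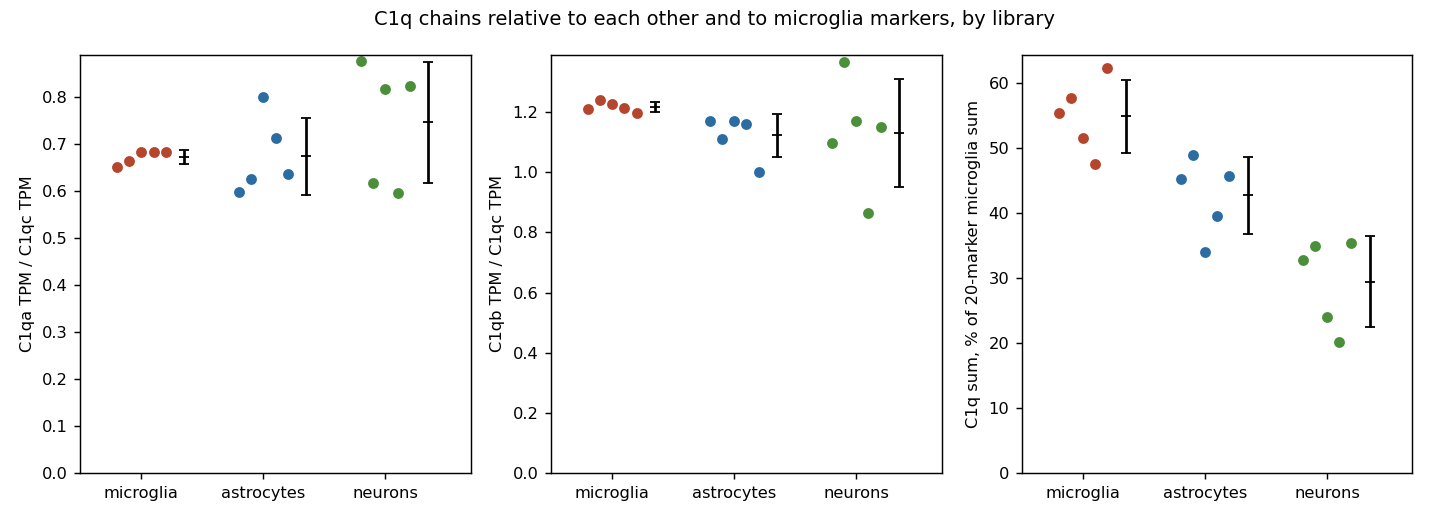
Ratios of C1qa to C1qc and C1qb to C1qc, and the C1q sum as a percent of the summed microglia markers, with 1 point per library in microglia, astrocytes and neurons. Microglia libraries lie closest together in both ratios, and the percent averages 54.9% in microglia, 42.7% in astrocytes and 29.5% in neurons, with overlap between neighbours.

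Upstream sequence of C1qb, C1qc and C3ar1 is shown because these members were all higher in microglia, and because the motif of PU.1, a master transcription factor of microglia and macrophages, could be looked up in it. RefSeq windows of 250 bases before the start site (GRCm38.p6) were available for C1qb, C1qc, C3, C3ar1 and C5ar1. Those of C3 and C5ar1 were searched but are not printed, although C5ar1 was also higher in microglia. Each stretch below is written in the direction of transcription. The C1qb stretch ends at its RefSeq start site, and the C1qc and C3ar1 stretches end where the first GENCODE exon begins, which leaves out the last 151 and 4 bases of their windows; capitals mark GAGGAA or its reverse complement TTCCTC. The C1qb stretch is chr4:136886201-136886450, the C1qc stretch chr4:136893066-136893164 and the C3ar1 stretch chr6:122856162-122856407, all on the minus strand.
C1qb: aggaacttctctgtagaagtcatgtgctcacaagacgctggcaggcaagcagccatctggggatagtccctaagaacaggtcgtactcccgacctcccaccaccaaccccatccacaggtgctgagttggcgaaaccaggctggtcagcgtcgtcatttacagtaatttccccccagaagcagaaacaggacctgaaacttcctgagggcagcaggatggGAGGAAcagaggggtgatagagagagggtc
C1qc: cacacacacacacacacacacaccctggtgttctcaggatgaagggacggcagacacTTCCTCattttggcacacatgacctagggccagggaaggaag
C3ar1: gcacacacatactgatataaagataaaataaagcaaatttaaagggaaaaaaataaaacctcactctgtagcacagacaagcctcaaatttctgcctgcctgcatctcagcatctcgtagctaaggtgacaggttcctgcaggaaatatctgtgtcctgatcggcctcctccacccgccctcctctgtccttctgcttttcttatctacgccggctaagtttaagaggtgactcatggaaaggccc
The motif was found on either strand in 2 of the 5 windows, 30 to 25 bases before the C1qb start site and 193 to 188 bases before the C1qc start site. Among all 32851 windows of the same length, 23.3% held it. The composite motif of PU.1 and interferon regulatory factors, the interferon-stimulated response element, the STAT motif TTCNNNGAA and the NF-kB motif were in 0 of the 5 windows, and in 2.30%, 2.98%, 7.02% and 1.21% of all windows. The motifs can overlap each other, and a match describes letters and not a bound site.

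C4b, whose product is cleaved by C1s to continue the cascade, had its highest level in astrocytes. The gene (chr17:34728380-34743882, minus strand) was at 1.14, 2.30, 1.92, 2.55 and 2.57 TPM in microglia, at 8.14, 9.02, 9.79, 8.58 and 5.52 TPM in astrocytes, and at 0.56, 0.22, 0.12, 0.30 and 0.16 TPM in neurons. All astrocyte libraries were above all microglia libraries, which were above all neuron libraries. C4b was called lower in microglia than in astrocytes (log2 difference -1.58 ± 0.178, SE; limma adjusted p = 3.33e-07), higher in microglia than in neurons (1.27, adjusted p = 5.34e-06) and higher in astrocytes than in neurons (2.85, adjusted p = 3.82e-10). Under quantile normalization the difference of microglia from astrocytes was -0.97 and the call ended, and without microglia libraries 1 and 2 it was -1.45. C4b shares most of its sequence with the paralog C4a, which was not analysed here, so the division of reads between them is uncertain.

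C3, the component on which all complement pathways converge, was at 0.22, 0.25, 0.29, 0.41 and 0.09 TPM in microglia, at 0.05, 0.39, 0.15, 0.10 and 0.30 TPM in astrocytes, and at 0.19, 0.86, 0.03, 0.12 and 0.20 TPM in neurons (chr17:57203970-57228136, minus strand). The 3 cell types overlapped throughout, and the single highest value was neuron library 2. In a fit without the filter the log2 differences were 0.07 for microglia against astrocytes, -0.0038 for microglia against neurons and -0.07 for astrocytes against neurons, each with an SE of 0.133 (limma adjusted p = 0.682, 1 and 0.690). Depth is not kept in TPM, so how few reads lie behind these values is unknown.

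The anaphylatoxin receptor genes were the members closest to the C1q chains in pattern. C5ar1, for the receptor of the C5a fragment (chr7:16246743-16259540, minus strand), was at 63.8, 57.2, 73.1, 85.5 and 112 TPM in microglia, at 1.02, 1.64, 1.09, 1.54 and 4.0 TPM in astrocytes, and at 0.74, 0.14, 0.40, 0.35 and 0.28 TPM in neurons. C3ar1, for the receptor of the C3a fragment (chr6:122847138-122856161, minus strand), was at 37.0, 41.0, 58.2, 67.4 and 46.4 TPM in microglia, at 0.33, 0.43, 1.02, 0.51 and 0.96 TPM in astrocytes, and at 0.13, 0.20, 0.15, 0.09 and 0.17 TPM in neurons. For both genes every microglia library was above every astrocyte library, and every astrocyte library was above every neuron library. C5ar1 peaked in microglia library 5 and C3ar1 in library 4, and the ratio of C5ar1 to C3ar1 ranged from 1.26 to 2.41 among the microglia libraries.

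C5ar1 was higher in microglia by 4.84 ± 0.238 (log2 difference, SE) than in astrocytes and by 5.82 than in neurons (limma adjusted p = 4.47e-12 and 4.96e-13). C3ar1 was higher by 4.94 ± 0.179 and 5.44, given as a description, since the filter partly set this direction through its microglia libraries. Without microglia libraries 1 and 2 the C5ar1 differences were 5.06 and 6.03, and C3ar1 no longer passed the filter. In astrocytes against neurons neither reached a log2 difference of 1, at 0.98 (95% interval 0.48 to 1.48, limma adjusted p = 0.00214) for C5ar1 and 0.50 (0.13 to 0.88, adjusted p = 0.0246) for C3ar1. With a pseudocount of 0.1 both did, at 1.96 and 1.51. C5ar1 also did without astrocyte library 1 (1.08), astrocyte library 3 (1.07) or neuron library 1 (1.06).

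Relative to microglia, both receptor genes were less reduced outside microglia than most microglia markers. C5ar1 was at 2.37 ± 1.57% of its microglia mean in astrocytes and 0.488 ± 0.285% in neurons (SD, n = 5 each). C3ar1 was at 1.30 ± 0.635% in astrocytes and 0.296 ± 0.0830% in neurons. Of the 20 microglia markers, 1 was above C5ar1 and 1 above C3ar1 in astrocytes, while in neurons 2 and 4 were. Neutrophils and monocytes carry these receptors too, and their 12 markers summed to 880 TPM in microglia (438 to 1090.5), 15.4 TPM in astrocytes (5.04 to 28.1) and 27.7 TPM in neurons (17.7 to 36.1), with 2 of the 12 at 0 in all astrocyte libraries. Their part in the receptor levels was not tested.

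Serping1, for the C1 inhibitor that holds C1r and C1s in check (chr2:84765387-84775444, minus strand), ran opposite to the C1q chains. It was at 6.60, 4.85, 9.24, 3.24 and 6.39 TPM in microglia, at 38.9, 47.2, 54.6, 39.0 and 50.5 TPM in astrocytes, and at 36.8, 37.4, 83.4, 60.3 and 45.4 TPM in neurons. Microglia were below both others in every library, and astrocytes and neurons overlapped. The log2 difference was -2.78 ± 0.238 (SE) for microglia against astrocytes and -2.92 for microglia against neurons (limma adjusted p = 8.41e-09 and 5.88e-09), or -2.77 and -2.90 without microglia libraries 1 and 2. For astrocytes against neurons it was -0.13 (95% interval -0.63 to 0.37, adjusted p = 0.661), and the sign turned without neuron library 3 (0.049). Mural markers summed to 179.7 TPM in microglia (108 to 276), 2266 TPM in astrocytes (1931 to 2632) and 4281 TPM in neurons (3017 to 5636), and the 10 fibroblast and meningeal markers to 45.4 TPM in microglia (32.8 to 59.1), 311 TPM in astrocytes (253 to 372) and 230.2 TPM in neurons (175 to 328). None of these markers was at 0 throughout a cell type, and their part in the Serping1 level was not tested.

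**Figure D4:**
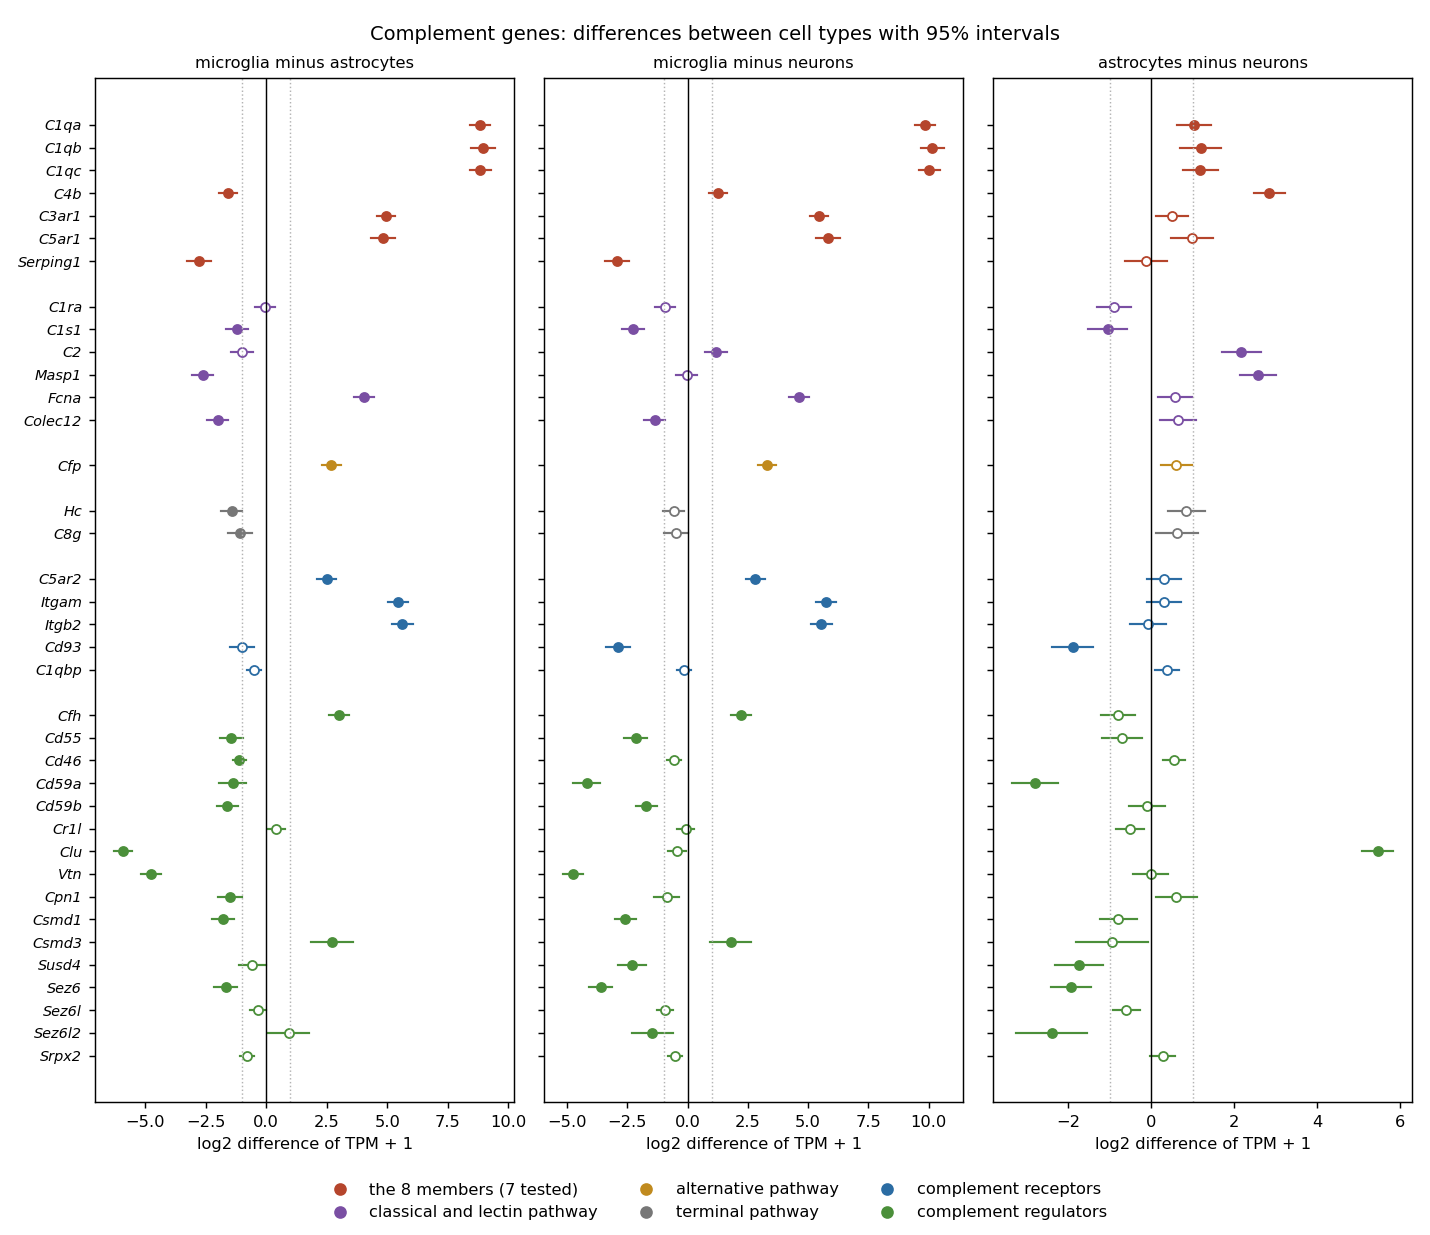
Log2 differences of the 7 tested members and 30 other tested complement genes with 95% intervals, on the log2(TPM + 1) scale. The panels show microglia minus astrocytes, microglia minus neurons and astrocytes minus neurons, and filled points were called. Among the members, the C1q chains, C3ar1 and C5ar1 lie above 4 in the comparisons with microglia, and Serping1 lies below -2 there. In astrocytes minus neurons the C1q chains and C4b are the only filled members, and 9 of the other genes are filled.

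Genes other than the members were ranked for each member by Pearson correlation of log2(TPM + 1) over the 15 libraries. This description mostly reflects the 3 cell types. The members were left out of the ranking, so a C1q chain could not be listed for another chain. Of the ranked genes, those most like C1qa, C1qb and C1qc were Fcgr3, Trem2 and Csf1r (r = 0.998 to 0.999). Those most like C3ar1 were Pld4, Pik3ap1 and Cd86 (r = 0.998), and those most like C5ar1 were Rnase2a, Fcgr3 and Ms4a6c (r = 0.993 to 0.995). C4b was most like Nxt2, Eva1a and Il18 (r = 0.978 to 0.982). Serping1 was most like Ogn, Pcolce and Galnt18 (r = 0.990 to 0.993), of which Ogn is in the fibroblast and meningeal marker list.

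The rest of the complement system was described with 54 further genes, of which 53 were in the table and 30 passed the filter. Microglia had 7 called higher and 14 lower than in astrocytes, where 10.2% of all tested genes were called higher and 32.3% lower, and 8 higher and 11 lower than in neurons, where these shares were 9.74% and 29.5%. Astrocytes had 3 higher and 6 lower than in neurons, with 12.7% and 12.9% of all tested genes. The median log2 differences of the 30 genes were -0.99, -0.58 and -0.05 in these comparisons, and those of all tested genes were -0.57, -0.48 and 0.03. Fcna and C5ar2 passed the filter through their 5 microglia libraries and 1 astrocyte library, and Itgam through its 5 microglia libraries alone. Itgb2 had 5 microglia, 1 astrocyte and 2 neuron libraries at 1 TPM. In the same order Masp1 had 2, 5 and 2, and Hc had 0, 5 and 1. Cd46 had 0, 5 and 2, and Cd93 had 0, 4 and 5. Each of these called genes passed only with the cell type in which it was highest. A difference in that direction was therefore partly set by the filter. Without microglia libraries 1 and 2, 18 of these genes were called against astrocytes and 16 against neurons. Of all 13070 genes tested in that fit, 5648 and 5351 were called. Fcna, C5ar2 and Itgam no longer passed the filter there.

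Among the genes that start the classical and lectin pathways, 6 of 14 were tested. Fcna, which encodes a ficolin that recognises sugars, was at 24.5, 19.0, 39.4, 24.4 and 33.5 TPM in microglia. It was at 0.32 to 1.15 TPM in astrocytes and at 0.06 to 0.29 TPM in neurons. Its log2 differences of microglia, 4.05 from astrocytes and 4.63 from neurons, are given as a description, since the filter partly set their direction. Masp1, a protease of the lectin pathway, was at 0.41 to 1.33 TPM in microglia, at 6.99 to 12.7 TPM in astrocytes and at 0.36 to 1.56 TPM in neurons. Its log2 differences were -2.62 for microglia against astrocytes and 2.58 for astrocytes against neurons. They are given as a description, since the filter partly set their direction through the astrocyte libraries. C2, which joins C4b in the enzyme that cleaves C3, averaged 2.53 TPM in microglia, 6.34 TPM in astrocytes and 0.554 TPM in neurons. It was called higher than in neurons in microglia (1.18, adjusted p = 0.000122) and in astrocytes (2.17, adjusted p = 2.05e-07). C1s1, for the protease C1s, was lowest in microglia at 0.13 to 0.47 TPM, against 1.44 to 3.14 TPM in astrocytes and 3.13 to 8.54 TPM in neurons, with log2 differences of -1.21 and -2.26 for microglia and -1.05 for astrocytes against neurons (adjusted p = 9.12e-05, 5.79e-08 and 0.000583). The scavenger receptor gene Colec12 was called lower in microglia, at 5.46 ± 1.60 TPM, than in astrocytes at 25.2 ± 8.203 TPM and neurons at 15.2 ± 0.932 TPM (SD, n = 5 each). Under median-of-ratios scaling and quantile normalization the calls of microglia ended for C1s1 against astrocytes (-0.93 and -0.58) and for Colec12 against neurons (-0.82 and -0.91). The C1s1 call of astrocytes against neurons ended without astrocyte library 2 (-0.98), neuron library 3 (-0.90) or neuron library 4 (-0.92).

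Of the 3 alternative pathway genes only Cfp was tested. It encodes properdin, which stabilises the C3-cleaving enzyme, and was at 17.9 to 33.0 TPM in microglia, 2.40 to 4.32 TPM in astrocytes and 1.45 to 2.44 TPM in neurons. The log2 differences of microglia were 2.69 from astrocytes and 3.30 from neurons (limma adjusted p = 2.81e-10 and 2.41e-11). Of the 7 terminal pathway genes Hc, which encodes C5, and C8g were tested, and both were called lower in microglia than in astrocytes. For Hc the filter partly set this direction. Hc was at 0.068 ± 0.0622 TPM in microglia, 2.02 ± 1.05 TPM in astrocytes and 0.634 ± 0.368 TPM in neurons (SD, n = 5 each). C8g was at 2.01 ± 0.744 TPM in microglia, 5.39 ± 1.31 TPM in astrocytes and 3.31 ± 1.54 TPM in neurons, and its call ended under both scalings (-0.58 and -0.48), without microglia libraries 1 and 2 (-0.93) and without astrocyte library 4 (-0.99). Listed below 1 TPM in every library were C1rb, C1s2, Mbl1, Mbl2, Fcnb, Colec10, Colec11, Cfd, C6, C7, C8a, C8b, C9, Vsig4, Cfi, C4bp, Cd55b and Cpn2, of which C1rb and Cfd were at 0 throughout.

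**Figure D5:**
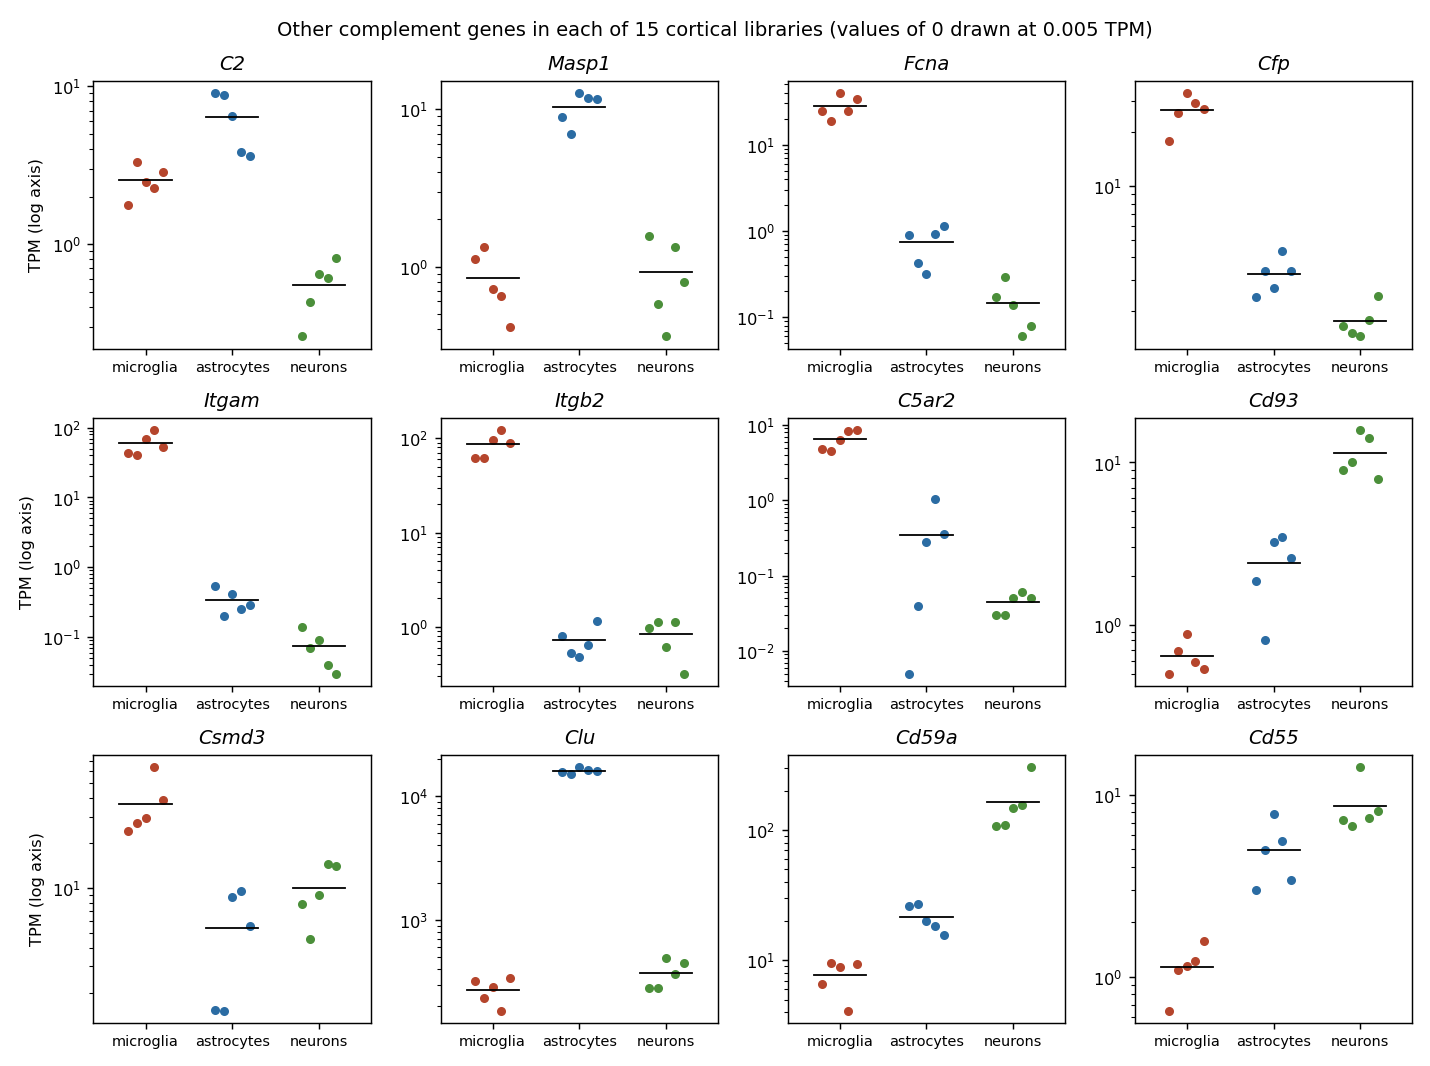
TPM on a log axis for 12 other complement genes in the 5 microglia, 5 astrocyte and 5 neuron libraries, 1 point per library, with values of 0 drawn at 0.005. By their means, Fcna, Cfp, Itgam, Itgb2, C5ar2 and Csmd3 are highest in microglia, C2, Masp1 and Clu in astrocytes, and Cd93, Cd59a and Cd55 in neurons.

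Receptor genes other than the members had 5 of 8 tested. Itgam and Itgb2, which encode the chains of CR3, were at 40.4 to 91.7 TPM and 62.0 to 122 TPM in microglia, 0.20 to 0.53 TPM and 0.48 to 1.16 TPM in astrocytes, and 0.03 to 0.14 TPM and 0.32 to 1.14 TPM in neurons. Itgam, which is also in the microglia marker list and was tested only because of its microglia libraries, had log2 differences of 5.44 and 5.75, given as a description. Itgb2 was higher in microglia by 5.62 and 5.54, also given as a description, since it passed the filter only with its microglia libraries. C5ar2, for the other C5a receptor, was at 4.56 to 8.47 TPM in microglia, 0 to 1.03 TPM in astrocytes and 0.03 to 0.06 TPM in neurons. Its log2 differences of microglia, 2.50 from astrocytes and 2.81 from neurons, are likewise a description, since the filter partly set their direction. Cd93, a glycoprotein of endothelial cells, averaged 0.638 TPM in microglia, 2.40 TPM in astrocytes and 11.4 TPM in neurons. Its log2 differences from neurons were -2.88 in microglia and -1.90 in astrocytes. These too are a description, since Cd93 passed the filter only with its neuron libraries.

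Complement regulators, with 16 of 21 tested, had 2 called higher and 9 lower in microglia than in astrocytes. Against neurons 2 were called higher and 8 lower. Of all tested genes, 10.2% were called higher and 32.3% lower than in astrocytes, and 9.74% higher and 29.5% lower than in neurons. Csmd3, which encodes a large membrane protein with complement control modules, was at 24.2, 27.1, 29.4, 63.8 and 38.6 TPM in microglia, at 1.52 to 9.62 TPM in astrocytes and at 4.57 to 14.4 TPM in neurons, and was higher in microglia by 2.73 and 1.78 (limma adjusted p = 1.11e-05 and 0.000884). Clusterin, encoded by Clu, an inhibitor of the terminal complex, was at 272 ± 62.6 TPM in microglia, 16072 ± 720.2 TPM in astrocytes and 374 ± 96.7 TPM in neurons (SD, n = 5 each). Its log2 difference was -5.91 for microglia against astrocytes and 5.46 for astrocytes against neurons (adjusted p = 8.31e-15 and 7.12e-14).

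Vtn, for vitronectin, was lower in microglia, with log2 differences of -4.74 from astrocytes and -4.76 from neurons (limma adjusted p = 4.84e-13 and 6.04e-13), and it is also in the mural marker list. Cd59a, for a membrane inhibitor of the terminal complex, averaged 7.70 TPM in microglia, 21.4 TPM in astrocytes and 164 TPM in neurons, and was called in every comparison (-1.39, -4.19 and -2.80, adjusted p = 0.000143, 1.83e-10 and 8.51e-08). Sez6 was also called in every comparison, at 1.02 TPM in microglia, 5.27 TPM in astrocytes and 23.6 TPM in neurons. Against astrocytes the call of microglia ended for Cd59a under median-of-ratios scaling (-0.76) and quantile normalization (-0.83), and for Sez6 under quantile normalization (-0.99). Csmd1 was called lower in microglia, at 0.26 TPM, than in astrocytes at 3.52 TPM and neurons at 6.75 TPM (-1.79 and -2.58, adjusted p = 5.76e-07 and 5.94e-09). Sez6l2 and Susd4 were called lower in astrocytes than in neurons (-2.40 and -1.75, adjusted p = 7.96e-05 and 3.24e-05). Paralogs share sequence, so the values of C1ra, C1s1, Cd59a, Cd59b and Cd55 are uncertain to that extent.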

How the data were processed

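RNA-seq of magnetically isolated microglia, astrocytes and neurons from the cortex of WT male mice at postnatal day 28 was analysed as TPM per gene, deposited by the authors in 1 table of 15 libraries (5 per cell type). Per the labels' protocols, RNA was column-purified, amplified as cDNA and enriched for polyA. RSEM 1.2.28, STAR 2.7.1a, DESeq2 1.36.0, Trim Galore 0.6.4 and the build mm10 are listed, per the submitters' processing notes, without their order; the annotation is not given in the sources used here. TPM keeps no depth, so counting intervals could not be given, and it is relative to each library's total, so a very abundant transcript lowers all others.

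Values were taken as log2(TPM + 1). The 13351 genes that reached 1 TPM in 5 or more libraries were fitted in limma 3.58.1 (R 4.3.3) with all cell types together and a variance trend, and p-values were adjusted by Benjamini-Hochberg over all of them. C1q chain ratios were compared by 2-sided exact permutation tests in scipy 1.17.1 (Python 3.11.15), adjusted over 6 tests. The fit was tested on simulated data. Promoters are from RefSeq and coordinates from GENCODE vM21.

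The members and gene lists were chosen with earlier results of these data known. Genes named beside members are, per functional list and comparison, up to 4 called genes with the largest differences and any against the list's majority. Also named are those below 1 TPM throughout, and the 3 genes most correlated with each member when the members are left out. Within that rule, values were shown for a choice of these made after they were seen. One gene that meets the rule is not reported here. Each result was recomputed with libraries left out, 2 cell types per fit, the replicate number as a block, no variance trend, quantile normalization, median-of-ratios scaling, a pseudocount of 0.1, a filter of 5 TPM, and no filter. After removal of group means, microglia and neuron libraries of the same number correlated at r = 0.216 to 0.382 in all 5 pairs, so the numbers were taken to pair them; the labels do not state this pairing, which rests on the data alone. The ranges were -0.0110 to 0.249 for microglia with astrocytes and -0.0329 to 0.233 for astrocytes with neurons, which were not taken as paired. The SEs and p-values given for microglia against neurons ignore their pairing, and the fit with the number as a block changed no member's call.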

Additional observations from a re-analysis of the deposited data

Results flagged for a closer look

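Among 124 groups of 5 libraries (a complement gene or a marker sum in 1 cell type), 7 held a library that stood apart from the other 4 by Dixon's test, which flags about 1 in 20 groups by chance. The member concerned was C5ar1, at 4.0 TPM in astrocyte library 5 where the others were at 1.02 to 1.64 TPM. Without that library the C5ar1 difference of astrocytes from neurons was 0.75 on the log2 scale, against 0.98 with it. Among the other complement genes, Cd55 was at 14.09 TPM in neuron library 3, Cd59a at 302.76 TPM in neuron library 5 and Susd4 at 4.46 TPM in astrocyte library 5, each the highest of its group. Among the marker sums, astrocyte library 2 was lowest in endothelial markers (2083.4 TPM) and highest in oligodendrocyte markers (3830.63 TPM), and microglia library 3 was highest in border macrophage markers (1971.03 TPM).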

How the results depend on the processing

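Of 536 member values under the alternatives, 519 kept their direction and side of the threshold, 8 fell short of it, 7 newly passed and 2 reversed. The reversals were Serping1 in astrocytes against neurons, at 0.19 without all libraries numbered 3 and 4 and within a range of -0.24 to 0.049 with 1 library left out (0.049 without neuron library 3). In that comparison C1qa was at 0.87 and C5ar1 at 1.13 without libraries numbered 3 and 4, and C5ar1 was at 1.15 without those numbered 1 and 2. The number of members called in astrocytes against neurons ranged from 2 (without neuron library 4) to 5 when 1 library was left out. Calls among all tested genes ranged from 3216 to 3445 there. Without libraries 1 and 2 of microglia, 6 members were called against astrocytes and 6 against neurons, since C3ar1 no longer passed the filter. Of all 13070 genes tested in that fit, 5648 and 5351 were called. C3ar1 also had no value without all libraries numbered 1 and 2 or 3 and 4, Itgam had none without any 1 microglia library, and Fcna and C5ar2 had none without libraries 1 and 2 of microglia. With a pseudocount of 0.1, 14 other complement genes were called in astrocytes against neurons, against 9. Among all 13351 tested genes 4252 were then called, against 3412. For these other genes, 1205 of 1228 values kept their call and 23 fell short. The C1qa to C1qc ratio of microglia against astrocytes turned to -0.015 with a pseudocount of 1 per chain, and ranged from -0.037 to 0.069 with 1 library left out. The C1qb to C1qc ratio of microglia against astrocytes was 0.12 under the replicate block with an adjusted exact p of 0.375, from the smallest unadjusted p that 5 pairs can give, and 0.079 to 0.136 with 1 library left out. That ratio ranged from 0.031 to 0.195 for microglia against neurons, passing without neuron library 2, and from -0.089 to 0.075 for astrocytes against neurons. The replicate block in limma changed no member's call. Scaling moved the share of calls that were higher in microglia, which was 24.0% against astrocytes as deposited, 47.0% with median-of-ratios scaling and 45.3% with quantile normalization. Against neurons these shares were 24.8%, 44.6% and 44.4%. The median over all genes moved by 0.52 and 0.45 with quantile normalization and by 0.28 and 0.26 with no filter. Depth is unknown, so values below 1 TPM carry an error that could not be given.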
